A study of Mus musculus with 10 samples.

Results

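The comparison set the colorectum of mice with dextran sodium sulfate (DSS) colitis that were given miR-29b against the colorectum of normal mice. It asked what still differed from normal under miR-29b. All mice were BALB/c and 7 weeks old, per the labels. The miR-29b mice had 2% DSS and miR-29b carried by sCA (super carbonate apatite, a carrier for nucleic acids), given by tail vein injection on days 1, 2 and 3, and tissue was taken on day 4. The miR-29a and NC-miR (negative control miRNA) mice of day 4 had the same DSS, carrier and injections with the other RNA. NC-miR mice of day 2 entered only the estimate of the spread. The same 3 injection days are labelled for them. For NC-miR the source name does not settle the day, which was read from the sample titles. Normal mice are labelled day 0 and untreated, so DSS, carrier, injections, RNA and day cannot be told apart in any difference from normal. The labels give a day but no hour of collection, and they do not say whether a library came from 1 animal or several, so p-values measure only the spread between libraries. Each group had 2 libraries, 10 in all. Of 23284 features, 12764 lay above the detection floor in both miR-29b libraries or in both normal libraries, and these are described here.

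The miR-29 family is a group of small RNAs that share a seed, the short 5′ stretch that pairs with matching sites in the 3′ untranslated region (UTR) of mRNAs and lowers their level or translation. Its best known targets encode collagens and other matrix proteins, and DNA methylation enzymes. DSS is a sulfated polysaccharide that injures the epithelium of the large bowel. That epithelium is made of absorptive colonocytes, which take up salt and water, and of mucus-secreting goblet cells, and beneath it lie macrophages, lymphoid follicles rich in B cells, stroma and muscle. Colon cells also carry a circadian clock, in which Arntl with Clock or Npas2 activates the Per, Nr1d and Dbp genes, and the Nr1d proteins in turn repress Arntl.

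The mature RNAs of the family show what was delivered and how the 2 injected members differ. They are printed 5′ to 3′ from RefSeq (GRCm38.p6), with the seed, bases 2 to 8, in capitals.
miR-29b-3p: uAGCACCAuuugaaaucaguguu
miR-29a-3p: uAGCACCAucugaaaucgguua
miR-29c-3p: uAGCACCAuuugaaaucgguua
The seed is the same in all 3. Counted from 1 at the 5′ end, miR-29b differs from miR-29a by U10C, A18G, G21U and U22A, all outside the seed, and is 23 bases long against 22. The 2 hairpins of miR-29b lie on chromosome 1 (mature part chr1:195037091-195037113, + strand) and chromosome 6 (chr6:31063025-31063047, - strand). The primary transcripts Mir29a, Mir29b-1 and Mir29b-2 were at the floor in all 4 libraries compared. The libraries were made from mRNA, so these rows do not measure the injected mature RNAs. Mir29c had values of 0.71 and 0.93 in miR-29b, against 0.69 and 2.12 in normal, and the groups overlapped (log2 difference -0.59 ± 0.63, limma adjusted p = 0.703).

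On the log2 scale of the deposited values, 0 is a baseline that belongs to each gene, and only differences between libraries of 1 gene carry meaning. Low values had been raised to a floor. A feature at the floor in a library may have any lower level, and a difference from a group at the floor is written "at least". The files give no counts, so depth is unknown. Between 12680 and 12940 of 23284 features lay above the floor in a library. Differences are miR-29b minus normal, with the limma standard error and n = 2 libraries per group, and calls are at a Benjamini-Hochberg adjusted p under 0.05.

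Of 13051 features tested, limma called 64 (0.490%), of which 44 were higher in miR-29b (0.337%) and 20 lower (0.153%). An unadjusted p under 0.05 was reached by 2000 features (15.3%). Both miR-29b libraries lay above both normal libraries for 2780 features (21.3%) and below both for 3304 (25.3%). The median difference over all features tested was -0.03. The median standard error was 0.18. A difference of at least 2-fold was seen in 198 of the 12764 features upward, 40 of them called, and in 152 downward, 17 of them called. At least 4-fold, there were 34 upward, 12 of them called, and 14 downward, 1 of them called. The largest differences of all belonged to small noncoding RNAs that were not called, such as Mir1892 (at the floor in both miR-29b libraries, limma adjusted p = 0.131) and Snord33 (at the floor in both normal libraries, limma adjusted p = 0.228), chosen here after their values were seen. The difference of Snord33 was at least 10.43 on the log2 scale, and that of Mir1892 was -11.31 or beyond.

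Genes of the circadian clock gave the largest called differences and moved in both directions. Of 20 clock genes tested, 8 rose and 3 fell, 0.337% and 0.153% being the shares over all features. The median of the list, 0.64, joins genes that moved in opposite directions. Both miR-29b libraries lay outside the normal range in 18 of the 20, 11 above and 7 below. Lists and their members, here and below, were chosen with earlier results of these data known. Their counts beside the shares over all features may therefore reflect that choice.

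Dbp, a transcription factor through which the clock drives metabolic genes (mm10 chr7:45705100-45710203), had values of 1.70 and 1.40 in miR-29b, against -2.88 and -2.99 in normal. It was 22.5-fold higher (log2 4.49 ± 0.19, limma adjusted p = 8.86e-05). Its relative Tef had 1.17 and 1.00 in miR-29b, against -1.49 and -1.47 in normal, and rose by 2.57 ± 0.13 (limma adjusted p = 0.000159). Gm129, now named Ciart and encoding a repressor of Arntl activity, had 2.24 and 1.92 in miR-29b and neither normal library above the floor, a rise of at least 4.31 on the log2 scale, or at least 19.8-fold. In these 3 genes the groups were several units apart. The libraries within a group were close together, but for Gm129 the spread of normal is unknown, since both libraries were at the floor.

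The Nr1d genes, whose products repress Arntl, were also higher. Nr1d2 had 0.78 and 0.63 in miR-29b, against -1.75 and -2.25 in normal, and rose by 2.70 ± 0.20 (limma adjusted p = 0.00182). Nr1d1 had 0.78 and 0.50 in miR-29b, against -2.0 and -3.71 in normal (3.50 ± 0.48, limma adjusted p = 0.0306). The normal libraries were further apart for Nr1d1 than for Nr1d2, but no miR-29b library reached them. Among the Per genes, whose products close the loop by inhibiting Arntl and Clock, the rises were 1.82 ± 0.15 for Per3, 1.67 ± 0.20 for Per2, named after its values were seen, and 1.60 ± 0.25 for Per1. Per1 is also on the glucocorticoid response list (list median 0.23). It was the only call among 17 tested genes there, beside 0.337% called higher over all features.

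Arntl and Npas2, of the activating arm, were lower, and so was the repressor Nfil3. Arntl (chr7:113178471-113314126), which encodes BMAL1, had -0.91 and -0.84 in miR-29b, against 1.30 and 1.48 in normal. It fell by 2.26 ± 0.20 on the log2 scale (limma adjusted p = 0.00455), so normal was 4.80-fold higher. Nfil3, a repressor that competes with Dbp and Tef, had -1.15 and -0.28 in miR-29b, against 1.36 and 1.20 in normal (-2.0 ± 0.31, limma adjusted p = 0.0486). Npas2, a partner of Arntl, had -0.40 and -0.35 in miR-29b, against 0.95 and 0.87 in normal (-1.28 ± 0.18, limma adjusted p = 0.0339). Clock and Cry1, named after their values were seen, had differences of -0.83 and -1.07 without a call (limma adjusted p = 0.125 for each).

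**Figure D1:**
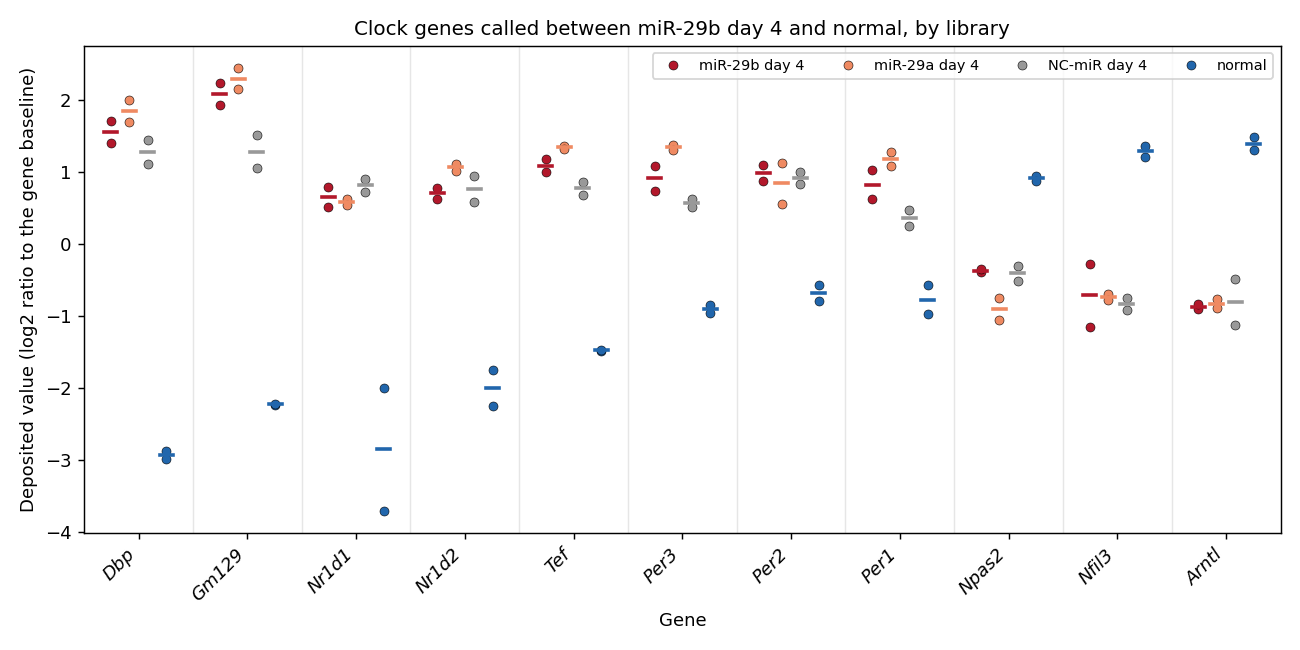
Deposited log2 value (vertical axis, ratio to the gene baseline) of the 11 called clock genes in each library of miR-29b, miR-29a, NC-miR day 4 and normal, in that order within a gene; points are libraries and short lines group means. The 2 normal libraries lie below every other library shown for the 8 genes that rose, and above every other for Npas2, Nfil3 and Arntl.

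In the plot of clock genes by library, the miR-29a and NC-miR libraries lay on the same side of normal as the miR-29b libraries. These 3 differences share the 2 normal libraries. Dbp differed from normal by 4.49 in miR-29b, 4.78 in miR-29a and 4.21 in NC-miR. Arntl differed by -2.26, -2.22 and -2.20 in the same order. In the direct contrast of miR-29b with NC-miR, Dbp differed by 0.28 and Arntl by -0.07, neither of them called.

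The E-box (CACGTG, the same on both strands) is the element that Arntl and its partners bind, and 3 promoters that hold it show its setting in genes that rose. In the 250 bases before each start in RefSeq, it was found in 6.02% of all 32851 promoters. It was in 3 of the 7 called, higher clock genes that had a promoter in the table, namely Gm129 (Ciart), Tef and Per1. The E-box was in 0 of the 3 called, lower clock genes. Outside the clock, it was in 4 of the 17 cholesterol synthesis genes with a promoter in the table. A gene counted if any of its promoters held a match, while the share over all is per promoter. The gene counts and these shares are therefore not like for like, here and for the elements below. A match is a description of letters and not a bound site. The run of Per1 precedes a start inside the gene, whose span begins at chr11:69095108, while those of Tef and Ciart lie outside their genes. Below are 120 bases of each around the match, 5′ to 3′ on the gene's strand (GRCm38.p6), with the E-box in capitals.
Tef, chr15:81802489-81802608 (+): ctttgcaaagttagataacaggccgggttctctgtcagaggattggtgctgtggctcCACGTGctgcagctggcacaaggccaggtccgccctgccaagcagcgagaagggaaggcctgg
Per1, chr11:69098726-69098845 (+): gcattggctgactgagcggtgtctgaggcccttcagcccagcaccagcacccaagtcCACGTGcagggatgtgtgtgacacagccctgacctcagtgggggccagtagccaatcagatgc
Ciart, chr3:95882282-95882401 (-): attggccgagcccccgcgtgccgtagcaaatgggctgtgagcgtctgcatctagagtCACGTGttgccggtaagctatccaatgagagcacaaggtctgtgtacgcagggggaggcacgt
The D-box (TTATGTAA, both strands), to which Dbp, Tef and Nfil3 bind, was in 0.819% of all promoters and in 1 of these 7, that of Per3. The AGGTCA element of the Nr1d proteins (both strands) was in 14% of all promoters and in 1 of the 3 clock genes that fell, Nfil3, and in 2 of the 7 that rose and had a promoter in the table, Nr1d2 and Per1.

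Genes induced by type I interferon, the antiviral cytokine family, were higher in miR-29b. Of 38 tested, 4 rose and 0 fell, beside 0.337% called higher over all features. Both miR-29b libraries lay above both normal libraries in 38 of 38 (21.3% over all features). This list too was chosen with earlier results of these data known. The median difference was 1.01, against -0.03 over all features, and differences ran from 0.15 for Eif2ak2 to 3.00 for Oas3. By library, the list stood 0.91 and 1.30 above the normal mean in miR-29b replicates 1 and 2. Bulk tissue cannot tell fewer or more cells of a type from less or more RNA per cell, here and for every list below.

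Oas3, an enzyme that senses viral RNA (chr5:120753098-120777684), had -0.58 and 0.69 in miR-29b and was at the floor in normal replicates 1 and 2, a rise of at least 3.00 (limma adjusted p = 0.0492, which may be too small because values at the floor hardly vary). Ifi27l2a had -0.19 and 0.73 in miR-29b, against -2.44 and -2.39 in normal, and rose by 2.68 ± 0.33 (limma adjusted p = 0.0226). Oasl2, of the same family as Oas3, had -0.92 and -0.03 in miR-29b, against -2.80 and -3.24 in normal (2.54 ± 0.39, limma adjusted p = 0.0475). In each of the 3 genes miR-29b replicate 2 was the higher one. Ddx60, a helicase of the antiviral response, had -0.68 and -0.44 in miR-29b, against -2.35 and -3.03 in normal (2.13 ± 0.27, limma adjusted p = 0.0226). Ifit1, an antiviral RNA-binding protein, and Isg15, a ubiquitin-like modifier, missed the call. Ifit1 had -0.65 and -0.07 in miR-29b, against -2.68 and -3.57 in normal (2.77 ± 0.62, limma adjusted p = 0.112). Isg15 had -0.84 and 0.17 in miR-29b, against -2.68 and -3.04 in normal (2.53 ± 0.45, limma adjusted p = 0.0662). Their groups did not overlap.

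**Figure D2:**
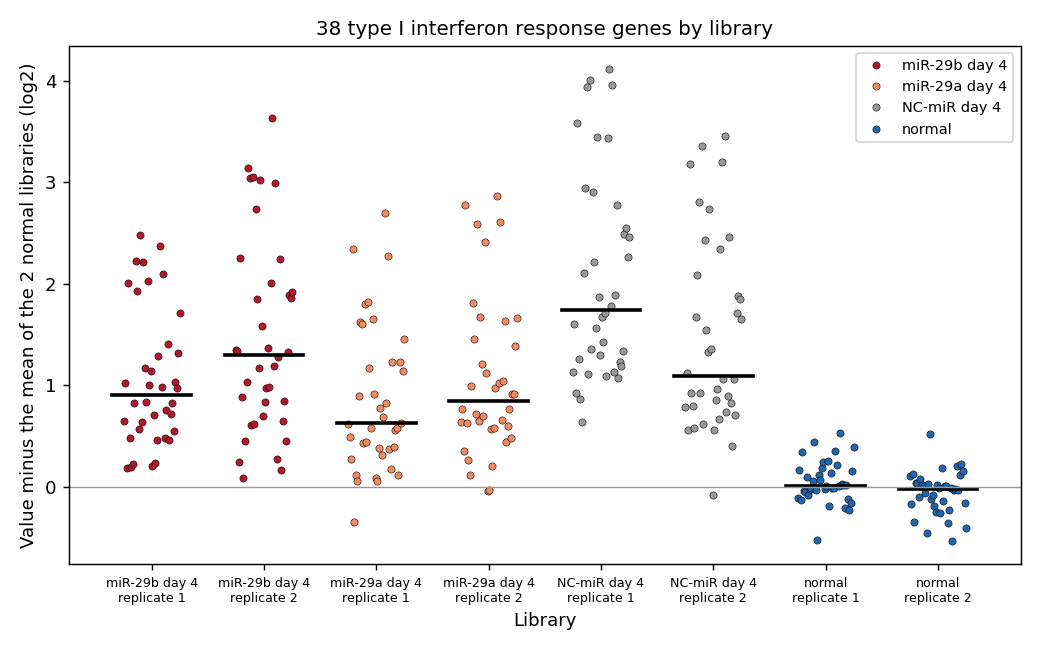
Value of each of 38 type I interferon response genes minus its mean over the 2 normal libraries (log2, vertical axis) in each library of miR-29b, miR-29a, NC-miR day 4 and normal; points are genes and black lines list medians. The medians are 0.91 and 1.30 in miR-29b, 0.63 and 0.84 in miR-29a, 1.75 and 1.10 in NC-miR, and 0.01 and -0.01 in normal.

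The plot of interferon genes by library places the miR-29b medians above those of miR-29a, and 1 NC-miR library between the 2 of miR-29b. The list's median in the contrast of miR-29b with NC-miR was -0.45, and 0 of its genes were called there. Ddx60 was 1.25 ± 0.27 lower in miR-29b than in NC-miR on the log2 scale (limma adjusted p = 0.303). Genes induced by interferon gamma or used in antigen presentation had 0 calls of 38 and a median of 0.47, with H2-K1, a class I molecule, at 0.90 ± 0.19 (limma adjusted p = 0.1).

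The interferon-stimulated response element (GAAA, then any 2 bases, then GAAA, on both strands) was in 2.98% of all promoters. It was in any promoter of 12 of the 27 interferon-list genes with a promoter in the table. The share is per promoter and the count per gene, so they are not like for like. The promoters of Oas3, which rose, and of Isg15, which missed the call, carry it near the start. They are shown over 120 bases, 5′ to 3′ on the gene's strand (GRCm38.p6), with 1 match in capitals. The run of Isg15 holds further matches that overlap or follow the marked one.
Oas3, chr5:120777670-120777789 (-): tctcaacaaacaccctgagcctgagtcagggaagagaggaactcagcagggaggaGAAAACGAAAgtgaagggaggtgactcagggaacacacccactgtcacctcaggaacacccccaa
Isg15, chr4:156200832-156200951 (-): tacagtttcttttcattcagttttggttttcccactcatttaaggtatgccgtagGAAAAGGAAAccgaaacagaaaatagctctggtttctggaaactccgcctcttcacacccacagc

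Absorptive colonocyte genes had a median difference of 0.64. Of 32 tested, 3 rose and 0 fell, beside 0.337% called higher over all features. Both miR-29b libraries lay above both normal ones in 22 of the 32 (21.3% over all features) and below both in 3, and 5 differences were negative. Car1, a carbonic anhydrase of colonocytes (chr3:14766214-14808365), had 1.38 and 1.35 in miR-29b, against -0.23 and -1.14 in normal, and was 4.14-fold higher (log2 2.05 ± 0.29, limma adjusted p = 0.0336). Slc26a3, the chloride-bicarbonate exchanger of the colon surface, had 0.77 and 0.30 in miR-29b, against -0.58 and -0.62 in normal (1.13 ± 0.18, limma adjusted p = 0.0486). Scnn1a, a subunit of the epithelial sodium channel, had 0.64 and 0.59 in miR-29b, against -0.29 and -0.37 in normal (0.94 ± 0.13, limma adjusted p = 0.0306). In all 3 the libraries of the 2 groups were apart, which was a condition of naming Car1 by size. The water channel Aqp8 had 0.32 and 0.49 in miR-29b, against -0.44 and -1.35 in normal, without a call (1.30 ± 0.26, limma adjusted p = 0.0846). Goblet cell genes had 0 calls of 15, 15 of 15 differences above 0 (45.3% over all features) and a median of 0.61, with the mucus-layer proteins Fcgbp at 0.80 ± 0.16 and Zg16 at 0.84 ± 0.21.

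Further calls named by the rule were Slc10a2, Upp1, Ccdc116, Ugt1a1 and Zbtb7c, all higher in miR-29b. Slc10a2, the bile acid transporter of the ileum, had 0.89 and 0.32 in miR-29b, against -1.22 and -1.51 in normal (1.97 ± 0.22, limma adjusted p = 0.0156). Upp1, which breaks down uridine, rose by 1.77 ± 0.28 and Ccdc116 by 1.73 ± 0.25. Ugt1a1, which conjugates bilirubin, had 0.51 and 0.72 in miR-29b, against -0.47 and -0.58 in normal (1.14 ± 0.14, limma adjusted p = 0.0226). It was the only call of 29 xenobiotic metabolism genes tested, beside 0.337% called higher over all features. Zbtb7c, at the floor in the normal libraries, rose by at least 1.10.

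Cholesterol synthesis genes had a median difference of 0.72. Of 25 tested, 2 rose and 0 fell, beside 0.337% called higher over all features. Both miR-29b libraries lay above both normal libraries in 21 of the 25 (21.3% over all features) and below both in 1, and 2 differences were negative. Lss, which closes the sterol rings, had 0.95 and 0.43 in miR-29b, against -0.79 and -0.73 in normal (1.45 ± 0.22, limma adjusted p = 0.044). Idi1, an isomerase early in the pathway, had 0.58 and 0.45 in miR-29b, against -0.65 and -0.81 in normal (1.24 ± 0.14, limma adjusted p = 0.0164). The libraries of the 2 groups were well apart for both. Hmgcs1, Mvd and Sc4mol missed the call at 0.72, 0.97 and 1.02 (limma adjusted p = 0.1, 0.0605 and 0.0509). The list medians against normal were 0.58 in miR-29a and 0.65 in NC-miR, with the same normal libraries. Abcg1, a sterol exporter under the control of LXR receptors, fell. It had -0.75, which is the floor, and -0.46 in miR-29b replicates 1 and 2, against 0.47 and 0.50 in normal. The fall was at least 1.09 on the log2 scale (limma adjusted p = 0.0492). Abcg1 was the only call of 15 LXR target genes, whose median was 0.16, beside 0.153% called lower over all features.

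Ccl8, Chit1, Lgals3 and Tspan4 were also called higher. Ccl8, a monocyte-attracting chemokine (chr11:82115185-82116799), had 1.00 and 0.12 in miR-29b, against -1.86 and -1.91 in normal, and was 5.45-fold higher (log2 2.45 ± 0.31, limma adjusted p = 0.0226). It was the only call of 8 cytokine and chemokine genes tested of 23 listed, beside 0.337% called higher over all features. The list median was 0.12 in miR-29b replicate 1 and 1.14 in replicate 2. Chit1, a chitinase of macrophages, had 1.74 and 0.97 in miR-29b and was at the floor in normal, a rise of at least 1.80 (limma adjusted p = 0.0492). Lgals3, galectin-3, had 0.93 and 0.96 in miR-29b, against 0.09 and -0.09 in normal (0.95 ± 0.13, limma adjusted p = 0.0355). The tetraspanin Tspan4 had 0.86 and 0.79 in miR-29b, against -0.55 and -0.39 in normal (1.29 ± 0.17, limma adjusted p = 0.0257). These groups were separate in each gene, which was a condition of naming Ccl8 and Chit1 by size. Monocyte and macrophage markers had 0 calls of 20 (median 0.31). Il6 was at the floor in all 4 libraries. Tnf was at the floor in both miR-29b libraries and in 1 normal library, and was not tested. Il1b had -0.27 and 0.87 in miR-29b, against -0.30 and -0.15 in normal, with groups that overlapped in part (0.53 ± 0.38, limma adjusted p = 0.545). The phospholipase Pla2g2a, an antimicrobial enzyme of the crypt, had 0.70 and 0.25 in miR-29b, against -1.57 and -1.71 in normal, without a call (2.12 ± 0.39, limma adjusted p = 0.071). Antimicrobial genes had 0 calls of 13 and a median of 0.81.

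B and plasma cell genes had lower values in miR-29b. Of 19 tested, 1 fell and 0 rose, beside 0.153% called lower over all features. Both miR-29b libraries lay below both normal libraries in 17 of the 19 (25.3% over all features), and the median was -1.64. The 2 miR-29b libraries stood at -1.75 and -1.55. Cxcr5, the receptor that guides B cells into follicles (chr9:44511787-44526444), was at the floor in both miR-29b libraries and had 1.40 and 1.11 in normal, so normal was at least 3.53-fold higher (log2 difference at least -1.82 in size, limma adjusted p = 0.0486). Ms4a1, which encodes CD20, had -0.76 and -0.42 in miR-29b, against 1.32 and 1.35 in normal, without a call (-1.93 ± 0.36, limma adjusted p = 0.071). Tnfrsf13c, the receptor for the survival factor BAFF, had -0.70 and -0.30 in miR-29b, against 1.32 and 1.5 in normal (-1.91 ± 0.40, limma adjusted p = 0.0975). The values of Ms4a1 and Tnfrsf13c were apart between the groups by more than a unit. The list medians against the same normal libraries were -1.01 in miR-29a and -1.5 in NC-miR. Serpina9, known from human germinal centre B cells, had -0.81 and -1.0 in miR-29b, against 0.44 and 0.30 in normal (-1.28 ± 0.16, limma adjusted p = 0.0231).

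The other falls named by rule span several functions. Cpm, a carboxypeptidase of the cell surface (chr10:117629500-117687352), had -0.76 and -0.65 in miR-29b, against 1.10 and 1.39 in normal (-1.95 ± 0.17, limma adjusted p = 0.00455). Slc34a2, a phosphate transporter, had -1.03 and -1.19 in miR-29b, against 0.47 and 0.72 in normal (-1.70 ± 0.26, limma adjusted p = 0.0486). Lifr, the receptor of leukaemia inhibitory factor, had -0.56 and -0.78 in miR-29b, against 0.45 and 0.61 in normal (-1.20 ± 0.15, limma adjusted p = 0.0227). All 3 were separate between the groups, which was a condition of being named by size. Ypel2 fell by 1.43 ± 0.20, Trim7 by 1.36 ± 0.22, Fsd1l by 1.24 ± 0.15 and Add3, an adducin of the membrane skeleton, by 1.05 ± 0.17. Epyc and Col5a3, 2 genes of the extracellular matrix, were at the floor in both miR-29b libraries and fell by at least 1.19 and at least 1.03.

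A further 24 calls lay outside the naming rule, 19 higher (0.78 to 2.33) and 5 lower (-1.11 to -0.85). Among them, chosen after their values were seen, were Hk2, a hexokinase (1.14 ± 0.16), Myo1a, a myosin of the brush border (1.04 ± 0.14), Usp2, a deubiquitinase whose transcript cycles with the clock (1.53 ± 0.24), and Tat, tyrosine aminotransferase (1.44 ± 0.19). The lower ones included Dio3os, at the floor in both miR-29b libraries, which fell by at least 1.03. In all, 96 features were above the floor in both miR-29b libraries and at it in both normal ones, of which 4 were called. The reverse was seen in 106, of which 5 were called. Over all features, 0.337% were called higher and 0.153% lower. Of 12238 features above the floor in all 4 libraries, 53 were called. Values at the floor hardly vary, so p-values of features at the floor in a group may be too small.

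**Figure D3:**
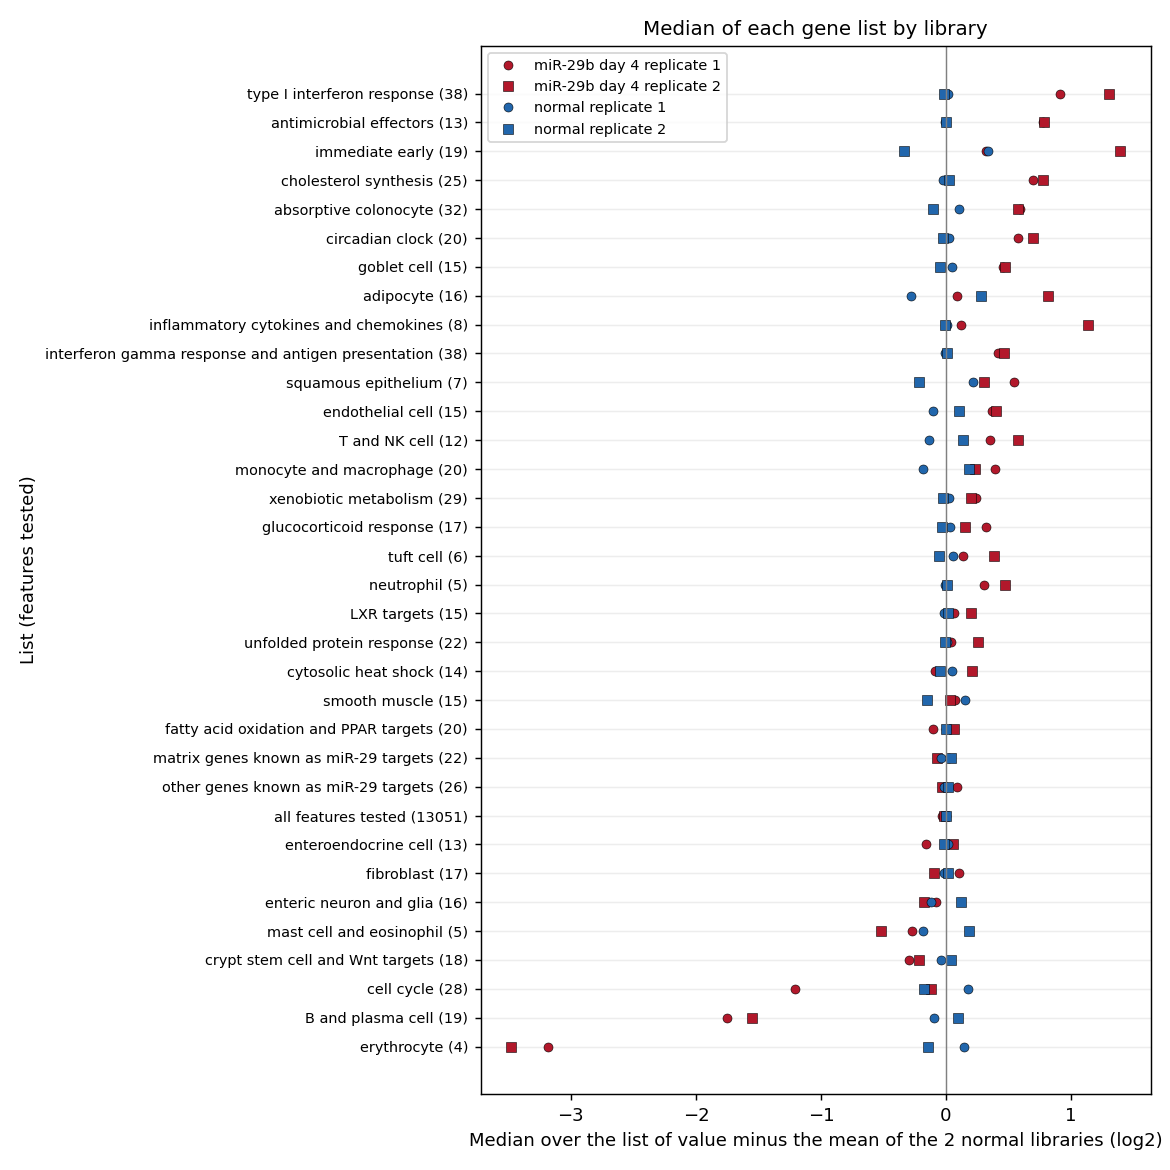
Median over each gene list of the value minus the mean of the 2 normal libraries (log2, horizontal axis) in the 2 miR-29b libraries (red) and the 2 normal libraries (blue), with the number of features tested in brackets. The interferon list lies at 0.91 and 1.30 in miR-29b and the erythrocyte list at -3.19 and -3.48, while cell cycle and immediate early genes differ by more than 1 unit between the 2 miR-29b libraries.

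The plot of list medians shows groups of genes with no call whose medians rested on 1 library. Cell cycle genes had 0 calls of 28 and a median of -0.70, with -1.21 in miR-29b replicate 1 and -0.12 in replicate 2. Top2a, a topoisomerase of dividing cells, had -1.81 and -0.65 in miR-29b, against 0.32 and -0.03 in normal (-1.37 ± 0.43, limma adjusted p = 0.195). Immediate early genes, which answer to stimulation within minutes, had 0 calls of 19 and a median of 0.77, with 0.32 in replicate 1 and 1.39 in replicate 2. Egr1 had 0.50 and 3.16 in miR-29b, against -0.30 and -2.11 in normal, a wide spread in both groups (3.03 ± 0.85, limma adjusted p = 0.16). Adipocyte markers also differed between the miR-29b libraries, at 0.09 and 0.81, with 0 calls of 16.

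Erythrocyte genes had 0 calls of 4 tested and a median of -3.39. The globin gene Hba-a1 had -1.73 and -3.13 in miR-29b, against 2.56 and 2.30 in normal (-4.86 ± 1.56, limma adjusted p = 0.203), and Beta-s had -2.32 and -2.18 in miR-29b, against 2.23 and 1.91 in normal (-4.32 ± 1.49, limma adjusted p = 0.228). Libraries of the other groups, which enter the estimate of the spread, differed, with list values of 0.34 and -3.63 in miR-29a replicates 1 and 2. The part of blood content in the other differences was not tested. Squamous epithelium genes stood at 0.54 and 0.30 in miR-29b, but at 3.55 in NC-miR replicate 1 and -0.05 in NC-miR replicate 2. Smooth muscle (median 0.01), fibroblast (-0.05), enteroendocrine (-0.04) and enteric neuron and glia (-0.14) markers had medians near that of all features and 0 calls. Endothelial markers had 0 calls of 15 and a median of 0.38, with Vwf, which encodes von Willebrand factor, at 0.80 ± 0.16 (limma adjusted p = 0.0796).

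Genes known as targets of miR-29 had medians close to that of all features. Matrix targets had 1 call of 22, Col5a3 lower, and a median of -0.01. Other targets had 0 calls of 26 and a median of -0.02. Over all features the median was -0.03, and 0.153% were called lower. Col1a1, the main fibrillar collagen, had 0.01 and 0.27 in miR-29b, against -0.14 and -0.21 in normal (0.32 ± 0.22, limma adjusted p = 0.523). Col3a1 had 0.10 and -0.01 in miR-29b, against 0.08 and -0.12 in normal, and Eln, elastin, had 0.00 and -0.17 in miR-29b, against 0.61 and 0.06 in normal (limma adjusted p = 0.894 and 0.484). Dnmt3a, a DNA methyltransferase, had 0.08 and -0.27 in miR-29b, against 0.20 and 0.11 in normal (-0.25 ± 0.22, limma adjusted p = 0.635). The groups overlapped for Col3a1 and were close for the other 3. Tet2, which oxidises methylated cytosine, and Mcl1, a survival factor, differed by 0.08 ± 0.20 and 0.46 ± 0.15 without a call.

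Sites that match the seed are shown for 5 of these genes, since they are where the injected RNA could pair. Each run is 30 bases of the 3′ UTR (GENCODE M21, GRCm38), 5′ to 3′ on the gene's strand, with the match TGGTGCT to the seed in capitals.
Col5a3, chr9:20770503-20770532 (-): tccacccctccaccaggcctttTGGTGCTa
Col1a1, chr11:94952516-94952545 (+): gggtggggtgggaaggaatttcTGGTGCTa
Col3a1, chr1:45348960-45348989 (+): ttccaacttcaaaatgtctcaaTGGTGCTa
Eln, chr5:134703736-134703765 (-): tgactcgcgacctcatcaacgtTGGTGCTa
Dnmt3a, chr12:3911383-3911412 (+): gcccttgcccaggggaggtagcTGGTGCTa
Col5a3 had 3 matches in a UTR of 785 bases and was the one of these genes that fell, to the floor in both miR-29b libraries. It differed from the same normal libraries by -1.03 in miR-29b, -0.87 in miR-29a and -0.87 in NC-miR, where replicate 2 was at the floor. The direct contrast of miR-29b with NC-miR, -0.16, was not called (limma adjusted p = 0.672), and its size is not known, since both groups reached the floor. Col1a1 and Col3a1 had 1 each, Eln 3 and Dnmt3a 5.

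Over all genes with an annotated 3′ UTR, those with a match had a slightly lower median than those without one. The precision of these medians was not estimated. Of 11480 tested genes with an annotated 3′ UTR, 1551 held at least 1 match on the mRNA strand and had a median of -0.06, and 9929 held none and had a median of -0.02. The 232 genes with 2 or more matches had a median of -0.13, and 69.4% of them lay below 0. Their median was -0.20 without miR-29b replicate 1 and -0.05 without replicate 2. The UTRs with a match were longer, at a median of 2279 bases against 817. Among UTRs of 2000 bases or more, 873 genes with a match had a median of -0.09 and 1904 without one had a median of -0.09. Against the normal mean, genes with a match had a median of -0.02 in miR-29b replicate 1 and those without one -0.03. In replicate 2 the medians were -0.10 with a match and 0.00 without one, so the lower median was seen in replicate 2 only. Of the 7 called genes with a match, Tef, Per3, Per1 and Tspan4 rose and Col5a3, Fsd1l and Ypel2 fell.

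**Figure D4:**
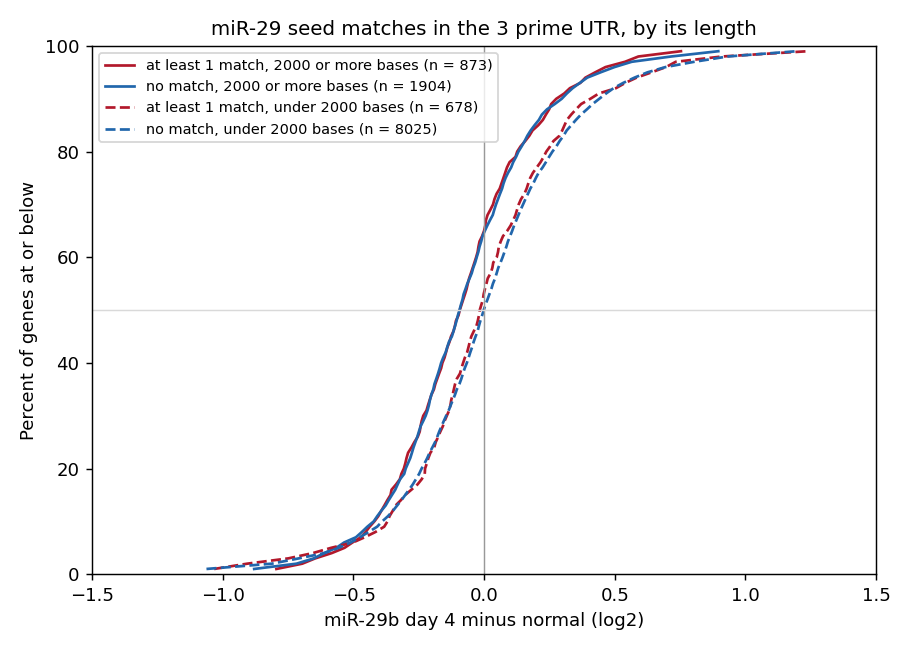
Percent of genes (vertical axis) at or below a given miR-29b minus normal difference (log2, horizontal axis), for genes with at least 1 seed match in the 3′ UTR (red) and with none (blue), split into UTRs of 2000 bases or more (solid) and under 2000 bases (dashed). The red and blue solid curves cross the middle at -0.09 and -0.09, left of the dashed curves at -0.02 and 0.00.

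In the cumulative curves of seed matches, genes with at least 1 match and with none had the same median, -0.09, among UTRs of 2000 bases or more. The 180 genes with 2 or more matches and such a UTR had a median of -0.14, with 71.1% below 0, against -0.09 and 64.7% for those with no match. The 2 sets were not alike in length, with median UTRs of 4022 and 2900 bases. In the contrast of miR-29b with NC-miR their medians were the same, -0.12 and -0.12. No test was made of these medians, since genes of 1 library are not replicates.

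To see which differences from normal were shared by other treated groups, the called genes that the naming rule takes were set beside miR-29a and NC-miR of day 4, with the same normal libraries. Against normal, limma called 55 features in miR-29a (0.421%) and 50 in NC-miR (0.383%). The direct contrast of miR-29b with NC-miR, in which normal cancels, called 0 of 13051 features (1627 at an unadjusted p under 0.05, 12.5%), and that of miR-29b with miR-29a called 0 (970, 7.43%). So none of the 64 was shown to differ between miR-29b and either group.

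**Figure D5:**
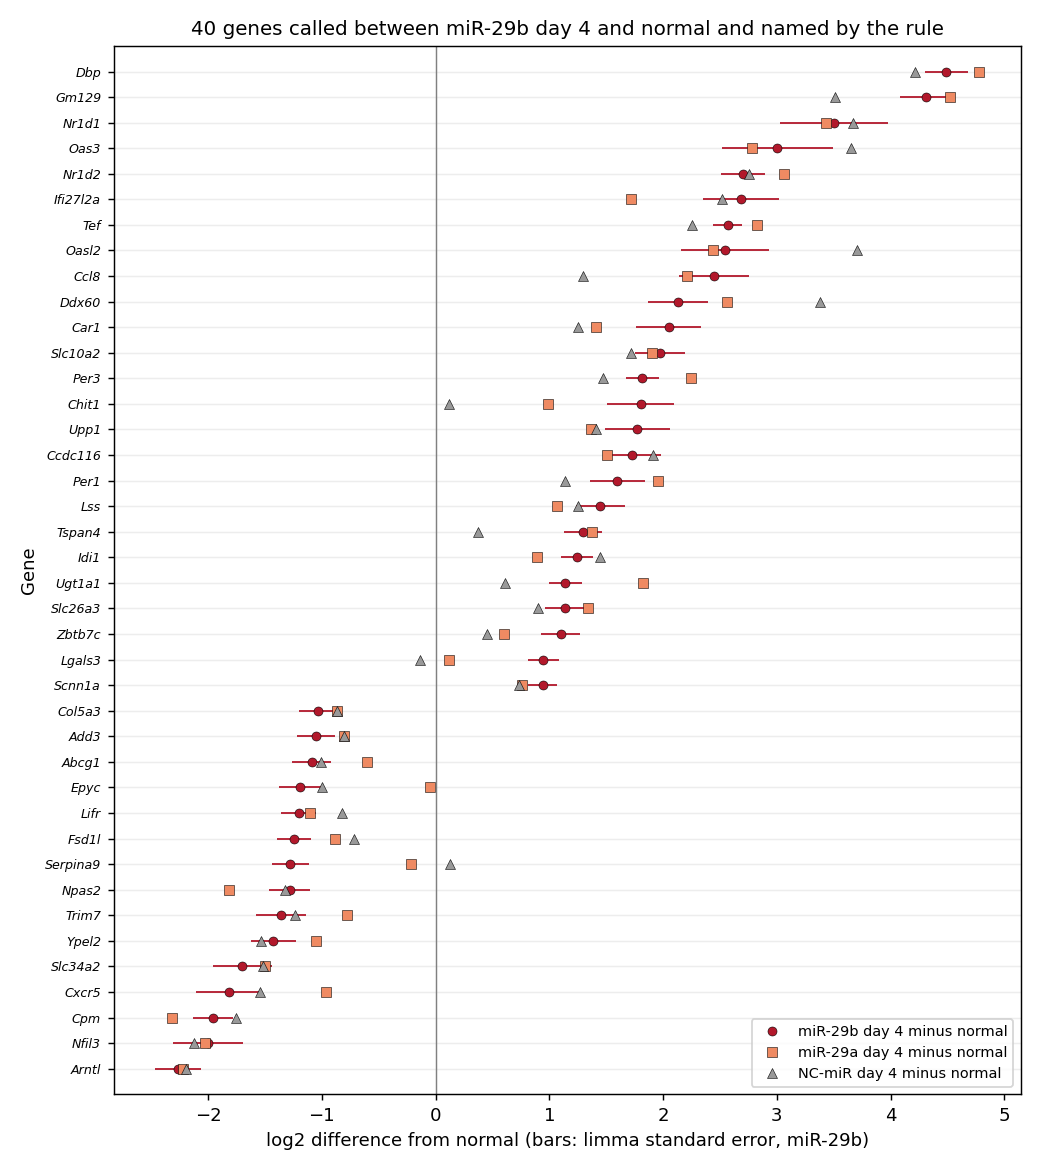
log2 difference from normal (horizontal axis) of the 40 called genes that the naming rule takes, in miR-29b (red circles, bars are limma standard errors), miR-29a (orange squares) and NC-miR day 4 (grey triangles), which share the 2 normal libraries. For Chit1, Lgals3 and Serpina9 the NC-miR points lie near 0, at 0.11, -0.14 and 0.12, away from the miR-29b points at 1.80, 0.95 and -1.28.

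In the side-by-side plot of the called genes, a few had values near normal in NC-miR. Serpina9 had -0.81 and -1.0 in miR-29b, 0.33 and -0.02 in miR-29a, 0.44 and 0.55 in NC-miR, and 0.44 and 0.30 in normal. It was 1.40 ± 0.16 lower in miR-29b than in NC-miR on the log2 scale, with limma adjusted p = 0.093 in that contrast. Lgals3 had 0.93 and 0.96 in miR-29b, 0.03 and 0.21 in miR-29a, -0.05 and -0.23 in NC-miR, and 0.09 and -0.09 in normal. Its difference from NC-miR was 1.08 ± 0.13 (limma adjusted p = 0.116). The miR-29b libraries stood apart from the other 6 for both genes, without passing the test. Chit1 had 1.74 and 0.97 in miR-29b, 0.18 and 0.90 in miR-29a, and -0.17 and -0.50 in NC-miR, the lower of which is the floor (miR-29b minus NC-miR at least 1.69, limma adjusted p = 0.259). Tspan4 had 0.86 and 0.79 in miR-29b, 1.03 and 0.77 in miR-29a, and 0.10 and -0.30 in NC-miR (0.92 ± 0.17, limma adjusted p = 0.264). Ugt1a1 had 0.51 and 0.72 in miR-29b, 1.28 and 1.33 in miR-29a, and -0.02 and 0.19 in NC-miR (0.53 ± 0.14, limma adjusted p = 0.338). Ccl8 differed from NC-miR by 1.15 ± 0.31 and Zbtb7c by 0.65 ± 0.17, each with limma adjusted p = 0.338. Gm129 and Fsd1l differed by 0.80 ± 0.22 and -0.53 ± 0.15, each with limma adjusted p = 0.339.

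How far the calls rest on single libraries was seen by leaving out each of the 10 in turn. Dbp, Gm129, Nr1d2 and Tef were called in all 10 fits, and each of the other 60 lost its call in at least 1. Without miR-29b replicate 1 or 2, 7 and 9 of the 64 remained called. Without normal replicate 1 or 2, 14 and 5 remained. Without either miR-29a library 28 remained, without either day 4 NC-miR library 41, and without either day 2 NC-miR library 46, since these libraries enter the estimate of the spread. Among the interferon calls, Oas3 and Oasl2 were lost in 8 of the 10 fits, and Ifi27l2a and Ddx60 in 3. Lgals3 and Cxcr5 were lost in 8, Lss in 6, Car1 and Nr1d1 in 5, Idi1 in 4 and Ccl8 in 3. Chit1, Slc26a3 and Zbtb7c were among those lost in all 10.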

How the data were processed

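mRNA of mouse colorectum was extracted with miRNeasy and prepared with a TruSeq stranded kit, per the labels' protocols. The submitters' processing notes name TopHat2 2.0.13, Bowtie2 2.2.3, SAMtools 0.1.19, Cuffnorm 2.2.1 and the build mm10, with no settings used here. Per the file headers the deposited column is called FPKM, but the authors' values lie on a log2 scale, as ratios to a baseline per gene. Base 2 put 98% of 1979 values on a grid of 6 significant digits, against 20.2% for base e and 21.4% for base 10. Each library carries 1 constant (-0.0427 to 0.0331). With it subtracted, the lowest value shared by 2 or more libraries (tolerance 2e-05) was taken as the floor, whose height in FPKM is not given in the sources used here. A lowest value found in 1 library only was not marked, so a feature at the floor in 1 of the 10 libraries counts as above it.

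A feature was tested if 1 or more of the 5 groups had both libraries above the floor (13051). limma 3.58.1 in R 4.3.3 fitted 5 group means to the 10 libraries without further normalization, with 5 residual and 3.26 prior degrees of freedom, 2-sided, with Benjamini-Hochberg adjustment over all features tested. The fit was run on simulated data with independent Gaussian noise of its own estimated variances and no floor. Such data cannot show how p-values behave at the floor or where features vary together. Standard errors and p of features at the floor in a group may be too small. The replicate numbers of the titles were taken as names, not pairs.

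Gene lists (33, with 716 of 722 entries found) and members were chosen with earlier results of these data known. Named genes were the 15 largest rises and 15 largest falls among calls whose groups did not overlap (provisional symbols left out), as many as 4 genes per list by smallest p, 25 set names, and up to 10 calls of smallest p against NC-miR day 4. Lists are described by counts and medians. Seed matches used 1 transcript per gene in GENCODE M21, that of the longest coding sequence. Promoters and miRNAs came from RefSeq GRCm38.p6, the same assembly as mm10. Alternatives left out each library, changed the filter, floor, scaling and moderation, added the replicate number as a block or used 4 libraries only. The values of 1 gene are not reported here.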

Additional observations from a re-analysis of the deposited data

How the results depend on the processing

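Leaving out 1 library at a time gave 5 to 60 calls of miR-29b against normal (64 with all), 5 to 45 higher and 0 to 17 lower. It gave 0 to 4 calls against NC-miR day 4 and 0 to 1 against miR-29a. A fit to the 4 libraries of miR-29b and normal alone, with 2 residual degrees of freedom, called 13 (7 higher, 6 lower), without a filter on the floor 29 (19 and 10), with the floor raised by 1 log2 unit 26 (21 and 5), and after quantile normalization 23 (17 and 6). With the features above the floor in all 4 libraries, 13 were lower. Against NC-miR day 4, the fit without a filter and the quantile fit each called 1. Median centring called 53, the filter on the 2 groups 69 and robust moderation 64. The cause of these changes was not tested. Same-numbered libraries of miR-29b and normal did not deviate together (r = -0.241, between -0.241 and 0.112 over all pairs of groups), so the numbers were not read as pairs. With the replicate number as a block, 35 were called (27 higher, 8 lower), and with the pairing crossed for normal, chosen after seeing the data, 50 (32 and 18). Of the named genes, none changed direction while called under any of these settings. The list medians of the miR-29 targets changed sign in 3 of them, between -0.07 and 0.02 for matrix genes and between -0.04 and 0.09 for the others. The interferon median stayed between 0.74 and 1.30, that of B and plasma cells between -1.75 and -1.48, that of cell cycle genes between -1.21 and -0.12 and that of immediate early genes between 0.32 and 1.39. Depth is unknown, 2 libraries per group limit the precision, and features below the floor were not measurable.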
